A study of Mus musculus with 12 samples.

Results

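The Serpina1 and Serpina3 genes lie in a cluster on mouse chromosome 12. Acetylation of histone H3 at lysine 9 (H3K9ac) was examined at 10 of them, *Serpina1a*, *Serpina1b*, *Serpina1c*, *Serpina1d*, *Serpina1e*, *Serpina3c*, *Serpina3k*, *Serpina3m*, *Serpina3n* and *Serpina6*, out of 21911 protein-coding genes. A peak belonged to a gene when it overlapped by at least 1 bp the gene body or the 5 kb either side of the gene start in the GENCODE M21 annotation of mm10 (GRCm38). The 10 windows held 26 of the 22968 peaks of B6 replicate 1, 19 of the 11619 of B6 replicate 2, 27 of the 17310 of MSM replicate 1, 25 of the 17584 of MSM replicate 2, 24 of the 20173 of the BM hybrid and 24 of the 13235 of the MB hybrid.

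H3K9ac ChIP-seq was carried out on formaldehyde-fixed adult liver with the antibody ab4441. The libraries were 2 from C57BL/6J (B6) mice, 2 from MSM/Ms (MSM) mice, 1 from the F1 hybrid with a B6 mother and an MSM father (BM) and 1 from the reciprocal F1 hybrid with an MSM mother (MB), and the labels name no transgene and no treatment of the mice. The replicates of a strain were separate mice, and the 6 input libraries of the same groups were not analysed here. The reference sequence is that of B6, whereas MSM was inbred from Japanese wild mice, so that reads of MSM and of the hybrids were mapped to the B6 sequence. Hepatocyte genes marked the tissue as labelled, since 7 of 7 markers such as *Alb* and *Apoa1* had peaks in every library, against 28.5% of all protein-coding gene windows. The 5 of 5 neutrophil markers had no peak in any library, as did 47.2% of all protein-coding gene windows.

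Serpins are inhibitors that trap a protease in a covalent complex. *Serpina1* genes encode alpha-1-antitrypsin, the plasma inhibitor of neutrophil elastase that hepatocytes secrete, and the mouse carries several copies where human has a single gene. *Serpina3* genes belong to the antichymotrypsin family, several members of which are acute-phase genes in liver, and *Serpina6* encodes corticosteroid-binding globulin, a serpin that carries hormone and does not inhibit proteases. H3K9ac is found at promoters and the first part of transcribed genes, and its presence does not measure transcript level.

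The promoters of the 5 *Serpina1* copies were nearly alike in the reference. In pairwise BLAST alignments, their RefSeq promoter sequences (250 bases before to 50 after the start, GRCm38.p6) were 91.7% to 97.7% identical, and that of *Serpina1e* was 94.7% to 97.7% identical to the other 4. A sixth sequence of this kind, at chr12:103827962-103828322 on the minus strand, was 92.7% to 97.3% identical to the *Serpina1* promoters and was closest to that of *Serpina1a*. No RefSeq start of the 10 genes lies there, although the locus falls within the intron of a long GENCODE transcript of *Serpina1b*. The sequences below run 5′ to 3′ for 120 bases from the *Serpina1a* promoter (chr12:103863641-103863760, minus strand), the *Serpina1e* promoter (chr12:103956976-103957095, minus strand) and the sixth locus (chr12:103828090-103828209, minus strand), and are shown because the acetylation at these near-identical promoters differed. They contain no annotated RefSeq exon of these genes, and the capitals mark the 7 positions at which the 3 sequences are not all the same.
Serpina1a: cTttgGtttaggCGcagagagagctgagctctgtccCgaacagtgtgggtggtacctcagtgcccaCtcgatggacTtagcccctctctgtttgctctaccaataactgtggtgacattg
Serpina1e: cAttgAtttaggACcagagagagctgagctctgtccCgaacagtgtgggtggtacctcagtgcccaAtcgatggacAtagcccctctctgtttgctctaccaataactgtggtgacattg
Serpina1-like locus: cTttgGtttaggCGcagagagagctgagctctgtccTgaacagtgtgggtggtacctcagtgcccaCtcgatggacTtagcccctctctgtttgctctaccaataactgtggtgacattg

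*Serpina3c* and *Serpina3n* form a second pair with similar promoters and unlike acetylation. The 150 bases before their RefSeq starts (*Serpina3c*, chr12:104153930-104154079, minus strand; *Serpina3n*, chr12:104406496-104406645, plus strand) had 140 identical positions in an alignment of 152 columns, an identity of 92.1%. Capitals mark the bases that are mismatched or unaligned, 10 in each sequence.
Serpina3c: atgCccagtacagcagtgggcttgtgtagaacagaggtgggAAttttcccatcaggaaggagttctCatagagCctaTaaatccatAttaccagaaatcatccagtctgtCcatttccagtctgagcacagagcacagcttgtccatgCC
Serpina3n: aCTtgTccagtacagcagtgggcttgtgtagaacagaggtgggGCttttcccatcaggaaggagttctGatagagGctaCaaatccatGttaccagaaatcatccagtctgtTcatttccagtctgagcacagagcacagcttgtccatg

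RefSeq promoter sequences were found for 7 of the 10 genes and not for *Serpina3k*, *Serpina3m* and *Serpina6*. The start of these sequences was the RefSeq gene start in the 5 *Serpina1* copies, but lay 57 bp inside the gene in *Serpina3c* and 62 bp inside it in *Serpina3n*. The 250 bases before the start of the sequence were searched on both strands. CAAAG, the shorter part of the HNF4 site, occurred in 6 of the 7, against 48.8% of 27025 promoters. These were the 5 *Serpina1* copies and *Serpina3c*, and the 5 near-identical copies are not separate cases. TATAAA, the TATA box motif, occurred in *Serpina3c* alone (13.0% of promoters). It lay 132 to 127 bases before the start of the sequence, which is itself 57 bp inside the gene. No match was found for TGTTTAC (forkhead factors, 3.09% of promoters), CAAAGTCCA (HNF4, 0.381%), TTGCGCAA (C/EBP, 0.170%), TTGCNNCA (C/EBP, 9.60%) or TTCNNNGAA (STAT, 7.18%), and CAAAG is contained in the longer HNF4 motif. The 250 bases before the gene start held the same motifs in *Serpina3c* and none in *Serpina3n*.

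Of the 10 genes, 9 carried peaks in each of the 6 libraries, and *Serpina3c* carried none in any. Of all protein-coding gene windows, 28.5% had a peak in all 6 libraries and 47.2% in none. At the same covered length in every library, *Serpina1e* had no peak in B6 replicate 1 and MSM replicate 1. *Serpina6* had none in MSM replicate 1 in this setting. The setting cut B6 replicate 1 at a −log10 q of 28.8 and MSM replicate 1 at 9.68, and left B6 replicate 2 uncut. The highest −log10 q at *Serpina1e* was 16.2 in B6 replicate 1, where it was dropped, and 4.21 in B6 replicate 2, where it was kept. At a −log10 q of at least 5 *Serpina1e* had no peak in B6 replicate 2. The share of all protein-coding gene windows with a peak was 50.8% and 33.3% in B6 1 and 2 (replicate numbers), 41.8% and 42.5% in MSM 1 and 2, 42.2% in the BM hybrid and 37.1% in the MB hybrid. The peak nearest to the *Serpina3c* start was 74423 to 112446 bp away. The peak lists differed in length, from 22968 peaks covering 16.0 Mb in B6 replicate 1 to 11619 peaks covering 6.28 Mb in B6 replicate 2, while the 2 MSM lists covered 9.66 and 9.69 Mb. Read counts were not used, and therefore a missing peak cannot be told apart from a peak too weak for the depth of its library. With 2 mice a strain, the exact permutation test (two-sided, 6 assignments) cannot give a p below 0.333, so that differences between strains were also set against the pooled SD within strains.

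**Figure D1:**
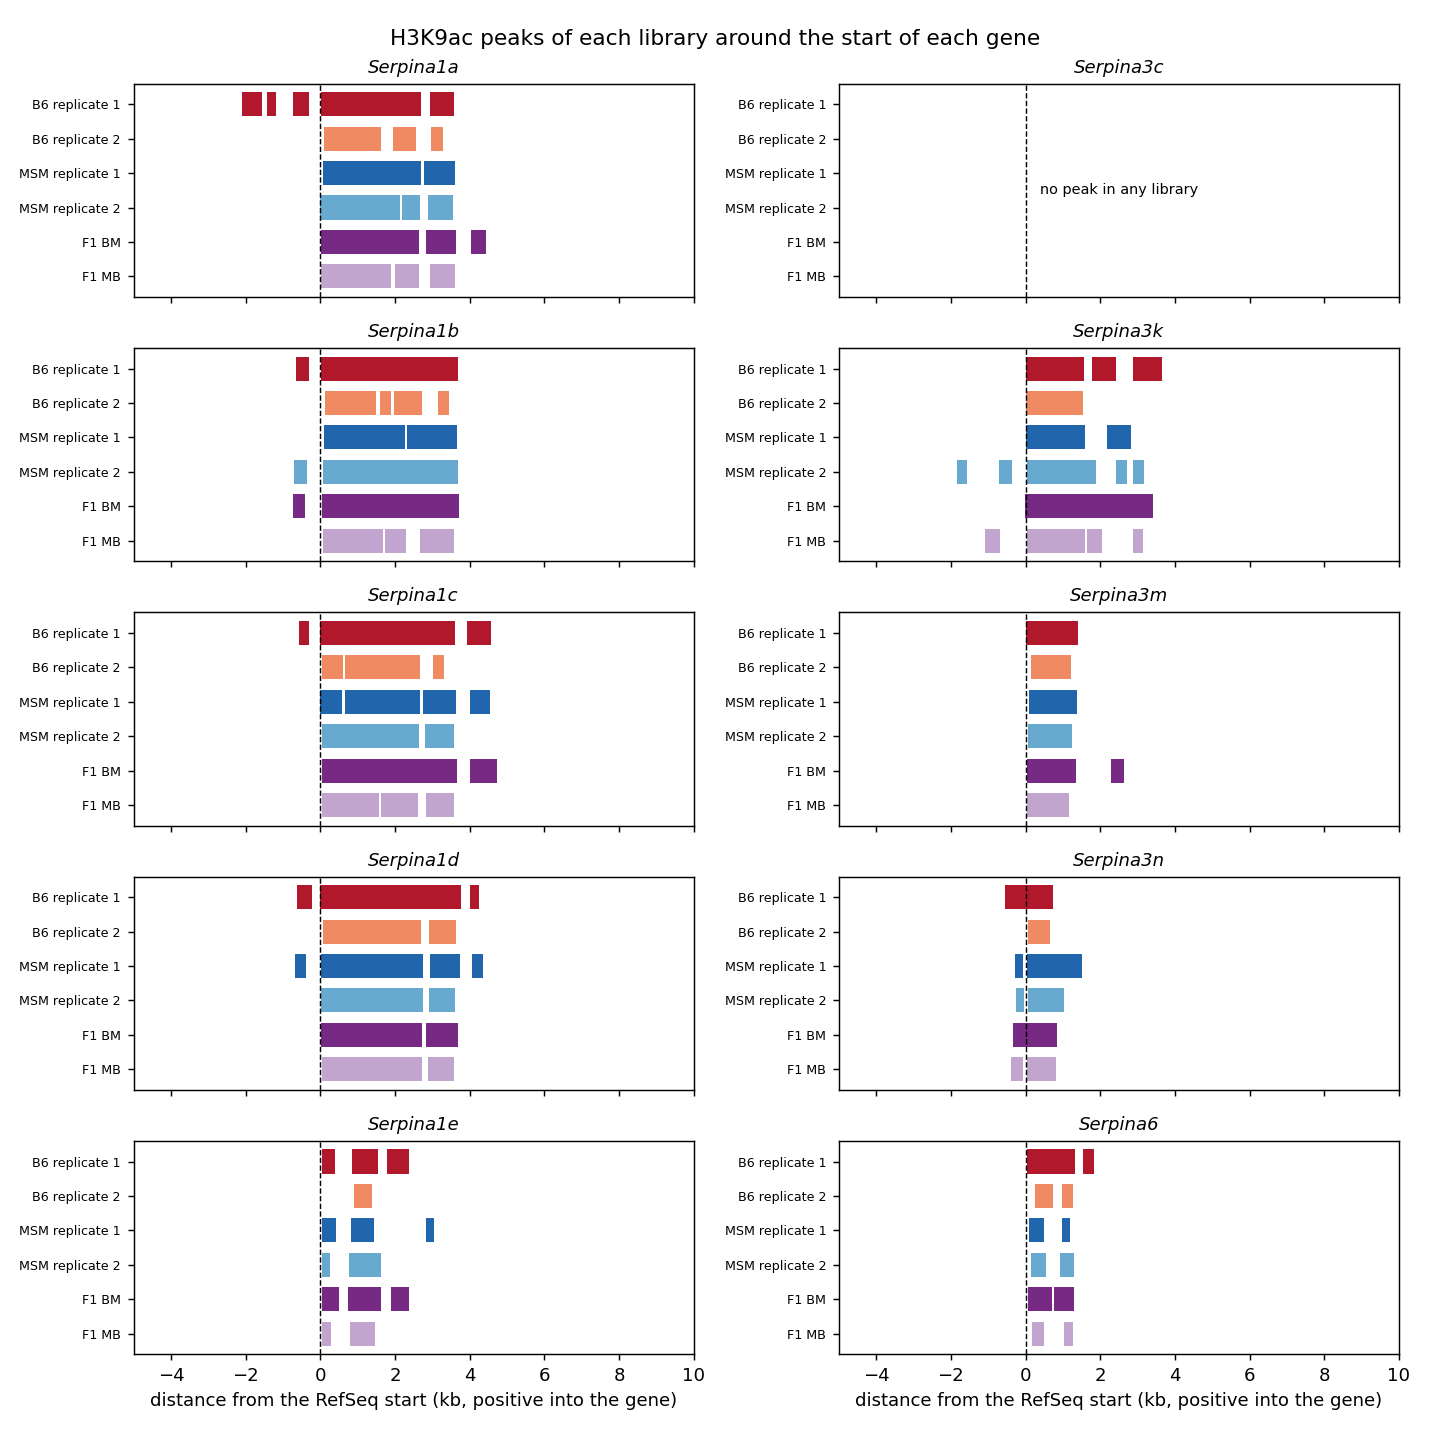
Peaks of each library (colored bars, 1 row a library) by distance in kb from the RefSeq start of each gene (dashed line), with positive distances inside the gene. Peaks of *Serpina1a* to *Serpina1d* fill most of the first 3.5 kb in all 6 libraries, those of *Serpina1e* are short and interrupted, and *Serpina3c* has none.

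*Serpina1a* had the peak lengths 4526 and 2472 bp in B6 (replicate 1 first here and throughout), 3447 and 3299 bp in MSM, 3819 bp in the BM hybrid and 3165 bp in the MB hybrid. Thus the 2 B6 mice lay on either side of both MSM mice. The highest fold enrichment, a linear ratio over the background of the peak caller, was 10.8 and 8.78 in B6, 7.51 and 5.02 in MSM, 7.08 in the BM hybrid and 8.07 in the MB hybrid. Both B6 values exceeded both MSM values, and the MB hybrid lay between the strains. The fold averaged 9.81 ± 1.46 for B6 and 6.27 ± 1.76 for MSM (SD over 2 mice a strain), and MSM minus B6 was -3.54 with a pooled SD of 1.62 and the smallest p that the exact permutation test can give, 0.333. *Serpina1a* was the 1 gene of the 10 without overlap of the strains in fold. Of 11446 windows with a peak in a parental library, 9.29% had both B6 values above both MSM values and 8.57% had the opposite, so that 1 of the 9 genes with peaks is near this background.

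The peak at the *Serpina1a* start began 0 to 99 bp from it and was 1532 to 2680 bp wide. A second region, chr12:103859976-103860832, 2787 to 3643 bp inside the gene and over coding exon sequence, also had a peak in all 6 libraries with a fold of 3.21 to 4.96. In B6 replicate 1 alone, 3 peaks of fold 3.13 to 5.55 lay before the start, between positions -2096 and -307. Another peak, 4044 to 4432 bp inside the gene, was listed in the BM hybrid alone.

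*Serpina1d* had the highest fold of the cluster in MSM replicate 2. Its fold was 11.8 and 8.26 in B6, 10.7 and 15.9 in MSM, 9.53 in the BM hybrid and 11.3 in the MB hybrid, and the strains overlapped (difference 3.31, pooled SD 3.13, exact permutation p = 0.667). Peak length was 4394 and 3336 bp in B6, 4128 and 3445 bp in MSM, 3557 bp in the BM hybrid and 3394 bp in the MB hybrid. These lengths varied less than those of *Serpina1a*, and the MSM mice lay within the range of the B6 mice.

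*Serpina1c* resembled *Serpina1d* in peak length. It had 4549 and 2858 bp in B6, 4038 and 3371 bp in MSM, 4352 bp in the BM hybrid and 3260 bp in the MB hybrid, and both MSM mice lay between the B6 mice. Its fold was 8.91 and 6.04 in B6, 6.98 and 10.9 in MSM, 8.13 in the BM hybrid and 9.11 in the MB hybrid, again with overlap. MSM exceeded B6 by 1 bp in mean length and by 1.46 in mean fold, below the pooled SDs of 909 bp and 2.42.

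*Serpina1b* needs its start to be stated. GENCODE extends it over chr12:103728156-103830373, a body that contains all of *Serpina1d* and the sixth locus, and places its start 92184 bp from the RefSeq start at chr12:103738189. Over the GENCODE window the peak length was 10665 and 6764 bp in B6, 10585 and 10290 bp in MSM, 11220 bp in the BM hybrid and 7915 bp in the MB hybrid, of which the peaks of *Serpina1d* form part. Within 5 kb of the RefSeq start, a window added after seeing the data, the lengths were 4032 and 2714 bp in B6, 3512 and 3986 bp in MSM, 3981 bp in the BM hybrid and 3097 bp in the MB hybrid. There the fold was 13.1 and 6.97 in B6, 11.2 and 10.4 in MSM, 11.6 in the BM hybrid and 10.2 in the MB hybrid, so that the 2 B6 mice enclosed the other 4 libraries.

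The sixth locus, which is no gene of the list, also carried acetylation. The peaks that overlapped the stretch from 500 bp before to 4500 bp after its 5′ end covered 2239 and 714 bp in B6, 2945 and 2859 bp in MSM, 3682 bp in the BM hybrid and 1424 bp in the MB hybrid. The highest fold there was 9.45 and 5.44 in B6, 5.71 and 7.19 in MSM, 6.17 in the BM hybrid and 6.72 in the MB hybrid. Both MSM mice were thus above both B6 mice in peak length, whereas the strains overlapped in fold. Of the 11446 gene windows with a peak in a parental library, 4.97% had both MSM mice above both B6 mice in length. The locus was singled out after its values were seen, and its strain difference was not tested. The only region of the 29 found in the parental libraries with peaks in both MSM mice and in neither B6 mouse, chr12:103825984-103826287, lay near it and had a fold of 2.80 and 3.77 in MSM and 2.47 in the BM hybrid. No region had the opposite pattern, and over 25803 regions of the parental libraries the shares were 3.38% for MSM and 3.29% for B6.

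*Serpina1e* had the least acetylation of the 5 *Serpina1* copies in every library, by both measures within 5 kb of the RefSeq start in 5 of the 6 libraries and by peak length alone in MSM replicate 2. Its peak length was 1621 and 493 bp in B6, 1195 and 1079 bp in MSM, 1789 bp in the BM hybrid and 908 bp in the MB hybrid. The fold was 5.94 and 3.61 in B6, 4.96 and 6.21 in MSM, 6.19 in the BM hybrid and 5.26 in the MB hybrid. In MSM replicate 2 the fold of *Serpina1a*, 5.02, was below that of *Serpina1e*. Among windows with a peak in the same library, the peak length of *Serpina1e* lay at percentiles 35.6 to 78.5, against 93.4 to 96.0 for *Serpina1a* and 92.9 to 97.1 for *Serpina1d*. A small peak began 44 to 57 bp after the *Serpina1e* start in 5 libraries, with a fold of 3.56 to 4.41, and was not listed in B6 replicate 2. The stronger signal lay 756 to 1628 bp inside the gene, over an intron, where all 6 libraries had a peak.

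**Figure D2:**
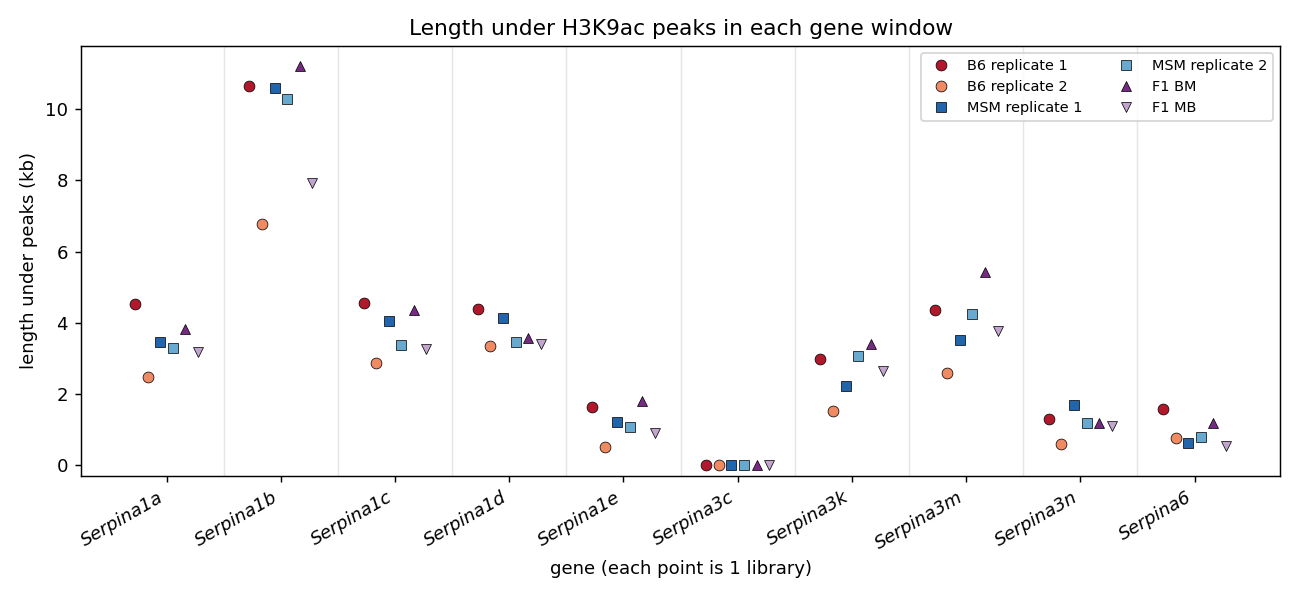
Length under H3K9ac peaks (kb) in the GENCODE window of each gene, with 1 point a library, circles for B6, squares for MSM and triangles for the F1 hybrids. The 2 B6 points lie far apart in most genes, and the *Serpina1b* and *Serpina3m* windows include *Serpina1d* and *Serpina3k*.

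*Serpina3k* shares its GENCODE start with *Serpina3m*, whose RefSeq start is 48671 bp farther on at chr12:104387157. *Serpina3k*, whose product is known to bind kallikrein, had peak lengths of 2970 and 1524 bp in B6, 2209 and 3063 bp in MSM, 3404 bp in the BM hybrid and 2641 bp in the MB hybrid. Its fold was 11.98 and 6.86 in B6, 5.96 and 7.06 in MSM, 6.21 in the BM hybrid and 6.71 in the MB hybrid. The value of B6 replicate 1 stood above the other 5 libraries in fold, and the strain difference of -2.91 was close to the pooled SD of 2.62 (exact permutation p = 0.667). The peak at the start began 0 to 30 bp from it in all 6 libraries.

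*Serpina3m* had within 5 kb of its RefSeq start a peak length of 1380 and 1072 bp in B6, 1299 and 1169 bp in MSM, 1655 bp in the BM hybrid and 1122 bp in the MB hybrid. Here the 2 MSM mice lay between the B6 mice. The fold was 9.31 and 4.32 in B6, 7.48 and 7.98 in MSM, 6.01 in the BM hybrid and 6.82 in the MB hybrid, also with the MSM mice between the B6 mice. Across the GENCODE window, which contains *Serpina3k*, the lengths were 4350 and 2596 bp in B6 and 3508 and 4232 bp in MSM.

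*Serpina3n*, an acute-phase member of the family, had peak lengths of 1299 and 590 bp in B6, 1693 and 1168 bp in MSM, 1175 bp in the BM hybrid and 1108 bp in the MB hybrid. The fold was 11.3 and 4.65 in B6, 5.76 and 9.74 in MSM, 8.02 in the BM hybrid and 7.55 in the MB hybrid. Both measures overlapped between the strains, with a difference of 486 bp against a pooled SD of 441 bp (exact permutation p = 0.667) and of -0.23 in fold against 3.88. The acetylated domain of *Serpina3n* also reached before the start, by 244 to 554 bp in 5 libraries from the RefSeq start. From the GENCODE start *Serpina1c* and *Serpina3n* reached before it in all 6 libraries. *Serpina3c*, whose promoter is shown above beside that of *Serpina3n*, had no peak in any library.

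*Serpina6* had peak lengths of 1564 and 771 bp in B6, 625 and 779 bp in MSM, 1167 bp in the BM hybrid and 539 bp in the MB hybrid. Its fold was 11.1 and 4.09 in B6, 4.18 and 6.85 in MSM, 4.46 in the BM hybrid and 4.57 in the MB hybrid. B6 replicate 1 was the highest library by both measures. The mean length was lower in MSM than in B6 by a difference of -466 bp, with a pooled SD of 404 bp and an exact permutation p of 0.667.

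**Figure D3:**
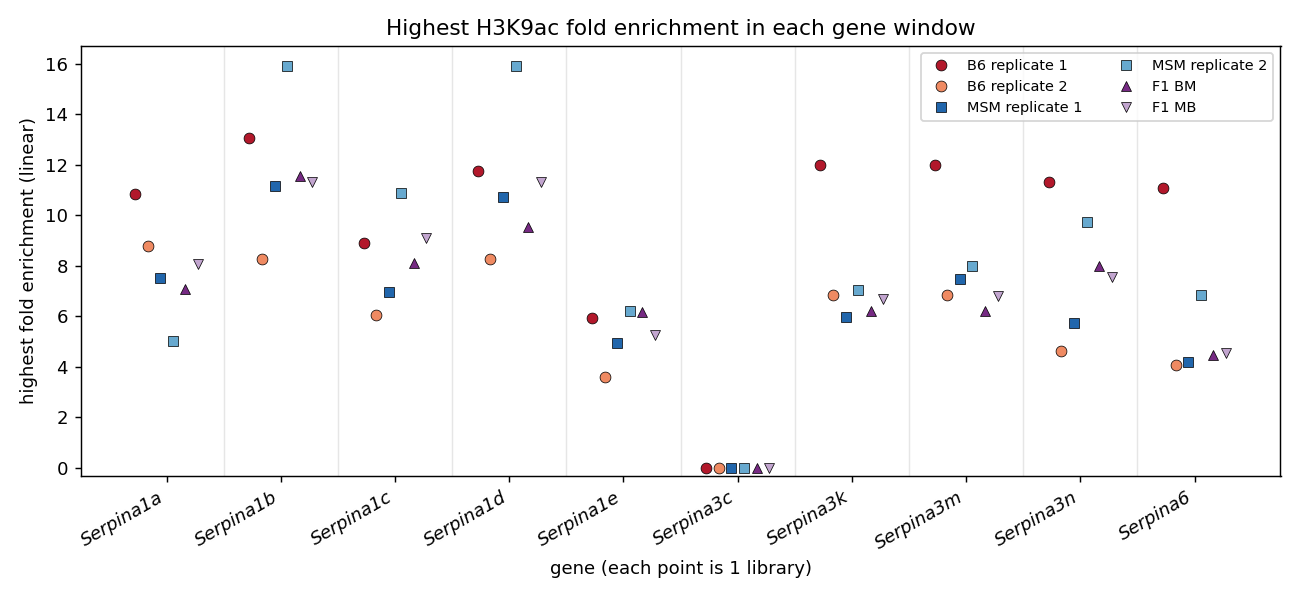
Highest fold enrichment (linear ratio) of the peaks in the GENCODE window of each gene, with 1 point a library. In *Serpina1a* both B6 circles lie above both MSM squares, and in *Serpina3k*, *Serpina3m*, *Serpina3n* and *Serpina6* B6 replicate 1 is the highest point.

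The domains extended mainly into the genes. Peaks at most 500 bp apart were joined, and the domain nearest the RefSeq start within 500 bp was measured. Such a domain was present in 53 of 54 pairs of a gene and a library (9 genes, 6 libraries), reached farther downstream than upstream in all 53, and began after the start in 37. In *Serpina1a* to *Serpina1d* it reached 3276 to 4724 bp into the gene, whereas in *Serpina3m* it reached 1169 to 1398 bp, in *Serpina3n* 662 to 1510 bp and in *Serpina6* 502 to 1822 bp. *Serpina1e* varied from 269 to 2381 bp over the 5 libraries with such a domain. *Serpina3k* had 3649 and 1543 bp in B6, 1601 and 1889 bp in MSM, 3402 bp in the BM hybrid and 2061 bp in the MB hybrid. The median downstream reach over all protein-coding genes with a domain at the GENCODE start was 589 to 764 bp in the 6 libraries, and 75.0% to 78.7% of those genes had the longer side downstream. At the GENCODE start, which 7 of the 10 genes had within 500 bp of a domain, the domain began after the start for 3 and 5 of 7 in B6, 4 and 1 in MSM, 1 in the BM hybrid and 3 in the MB hybrid, while 31.6% to 53.4% of all genes with a domain did so. The domain at the GENCODE start of *Serpina3m* is that of *Serpina3k*.

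Over the union of the 10 windows (255644 bp), peaks covered 28574 and 16544 bp in B6, 25091 and 24218 bp in MSM, 28934 bp in the BM hybrid and 20658 bp in the MB hybrid. The MSM mice were alike and lay between the B6 mice, and the mean difference of 2096 bp was below the pooled SD of 6031 bp (exact permutation p = 1). The *Serpina1* windows gave 21361 and 12587 bp in B6, 19265 and 18039 bp in MSM, 21180 bp in the BM hybrid and 15248 bp in the MB hybrid. The *Serpina3* and *Serpina6* windows gave 7213 and 3957 bp in B6, 5826 and 6179 bp in MSM, 7754 bp in the BM hybrid and 5410 bp in the MB hybrid. In both sets MSM lay between the B6 mice, with differences of 1678 and 418 bp and pooled SDs of 4430 and 1638 bp. No gene of the 9 with peaks had both mice of a strain above both of the other in peak length, whereas over all 11446 windows 4.97% had MSM above B6 and 11.6% had B6 above MSM.

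The comparison rested on which B6 mouse was used. Without B6 replicate 1, 8 genes had MSM above B6 in peak length and none B6 above MSM, against 61.2% and 13.2% of all windows with a peak in the remaining libraries, and the difference over the union was 8111 bp. Without B6 replicate 2, 7 genes had B6 above MSM and none the reverse, against 84.2% and 5.03% of windows, and the difference was -3920 bp. Most windows with a peak in the remaining libraries thus shifted in the same direction as these genes. In fold, 7 genes had MSM above B6 without B6 replicate 1 and *Serpina1a* had B6 above MSM, against 60.2% and 11.1% of windows. Without B6 replicate 2, 5 genes including *Serpina1a* had B6 above MSM in fold and none the reverse, against 69.8% and 9.15% of windows. Leaving out MSM replicate 1 left 4 *Serpina1* genes higher in MSM in fold and *Serpina1a* higher in B6, against 20.3% and 17% of windows. Of these, *Serpina1b* and *Serpina1d* had the same fold in MSM replicate 2, 15.9, as the *Serpina1b* window contains *Serpina1d*. Within 5 kb of the RefSeq start, *Serpina1b* had 10.4 in MSM replicate 2, between the B6 values of 13.1 and 6.97. Leaving out MSM replicate 2 left *Serpina1a* and *Serpina3k* higher in B6 in fold and none higher in MSM, against 17.4% and 18.2% of windows. In peak length, *Serpina3k* was higher in MSM and none in B6 without MSM replicate 1, against 10.7% and 17.9% of windows, and *Serpina3n* was higher in MSM and *Serpina6* in B6 without MSM replicate 2, against 10.2% and 18.3%.

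When each list was cut to its strongest peaks up to the length covered by the shortest list, the *Serpina1* windows held 13761 and 12587 bp in B6, 15706 and 14869 bp in MSM, 16889 bp in the BM hybrid and 13702 bp in the MB hybrid. Both MSM mice were then above both B6 mice, by a mean of 2114 bp with a pooled SD of 721 bp and the smallest possible p, 0.333 (exact permutation test). The lowest −log10 q kept was 28.8 in B6 replicate 1 and 9.68 and 10.1 in MSM, while B6 replicate 2 was left uncut. The libraries were thus not held to the same peak strength, and the part of these cutoffs in the difference was not tested. For single genes *Serpina1b* and *Serpina3k* were higher in MSM in this setting, while 17.5% of 8366 windows had MSM above B6 and 15.6% the opposite. Within 5 kb of the RefSeq starts, where each start is counted once and the sixth locus is left out, the *Serpina1* difference at the same covered length was 752 bp with a pooled SD of 1032 bp (exact permutation p = 0.667), and *Serpina3k* alone was without overlap, with MSM above B6, against 16.8% of windows with MSM above B6 and 14.9% with the opposite. The *Serpina3* and *Serpina6* windows gave 5528 and 3957 bp in B6 and 4347 and 4766 bp in MSM, with overlap.

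Other settings separated the strains in peak length at 3 genes or fewer. Each count is given with the share that did so among windows with a peak in a parental library in that setting. At the same number of peaks, *Serpina1a* and *Serpina3k* were higher in MSM (8.87% of windows) and none in B6 (19.3%). Within 5 kb of the GENCODE start alone, *Serpina1b* was higher in MSM (4.4%) and none in B6 (12.1%). In the gene body, *Serpina3n* was higher in MSM (6.12%) and none in B6 (11.7%). Within 1 kb of the start, *Serpina6* was higher in B6 (12.2%) and none in MSM (3.63%). Per Mb of the whole list, *Serpina1e* and *Serpina3n* were higher in MSM (17.1%) and *Serpina6* in B6 (15.6%). The genes that were separated thus changed with the setting. In fold divided by the median fold of the list, *Serpina1a* and *Serpina3k* were higher in B6 (12.8%) and none in MSM (10.1%). In mice paired by replicate number, *Serpina3n* was higher in MSM in length in both pairs (8.07%) and none in B6 (17.2%), while *Serpina1a* was higher in B6 in fold (14.9%) and none in MSM (14.2%).

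Each F1 hybrid was a single library and was not tested. In peak length the BM hybrid lay above all 4 parental libraries at *Serpina1b*, *Serpina1e*, *Serpina3k* and *Serpina3m*, 4 of the 9 genes with peaks, and below them at none. Of windows with a peak in a parental library, 13.3% lay above and 4.94% below. As the *Serpina3m* window contains *Serpina3k*, these 2 are not separate, and the *Serpina1b* window contains *Serpina1d* and the sixth locus. Within 5 kb of the RefSeq start of *Serpina1b*, the BM hybrid with 3981 bp lay below B6 replicate 1 (4032 bp) and MSM replicate 2 (3986 bp). Within 5 kb of the RefSeq start of *Serpina3m*, which leaves out *Serpina3k*, the BM hybrid with 1655 bp lay above the parental libraries (1380 and 1072 bp in B6, 1299 and 1169 bp in MSM). The MB hybrid lay above the parental libraries at none and below them at *Serpina6*. For this hybrid 1.25% of windows with a peak in a parental library lay above and 18.7% below. The BM hybrid list was the longer of the 2, with 12.3 Mb against 7.46 Mb covered.

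Because the *Serpina1* copies are alike, 50-base sequences, the read length, were searched in the mm10 chromosomes. In the RefSeq bodies of *Serpina1a* to *Serpina1e*, 53.2%, 39.3%, 55.0%, 42.6% and 40.0% of 50-mers were found more than once. The shares were 3.10% in *Serpina3c*, 6.84% in *Serpina3k*, 8.97% in *Serpina3m*, 4.47% in *Serpina3n* and 0% in *Serpina6*. Reads from such sequence can be placed at another copy, so that values of single *Serpina1* copies are uncertain, to an extent not measured here. The shares describe single 50-mers of the B6 sequence, and not read pairs or MSM sequence. In the first 4 kb the share was 44.7% in *Serpina1a*, 34.9% in *Serpina1b*, 46.8% in *Serpina1c* and 50.4% in *Serpina1d*. In *Serpina1e* it was 51.9%, the highest of the 5. At the sixth locus 36.4% of 50-mers over 4 kb were repeated. In the nearby region with peaks in both MSM mice and neither B6 mouse, chr12:103825984-103826287, 54.9% were. Over the 5 copies and 6 libraries, 30.6% to 81.1% of 50-mers inside peaks and 29.2% to 72.5% of those outside were repeated, and the share was higher outside in 9 of 30 cases. At *Serpina1e* it was 62.0% to 81.1% inside peaks and 41.2% to 47.8% outside, higher inside in all 6 libraries, whereas at *Serpina1b* it was higher outside in all 6. How reads with several placements were treated was not given in the sources used here, and its part in these values was not tested.

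**Figure D4:**
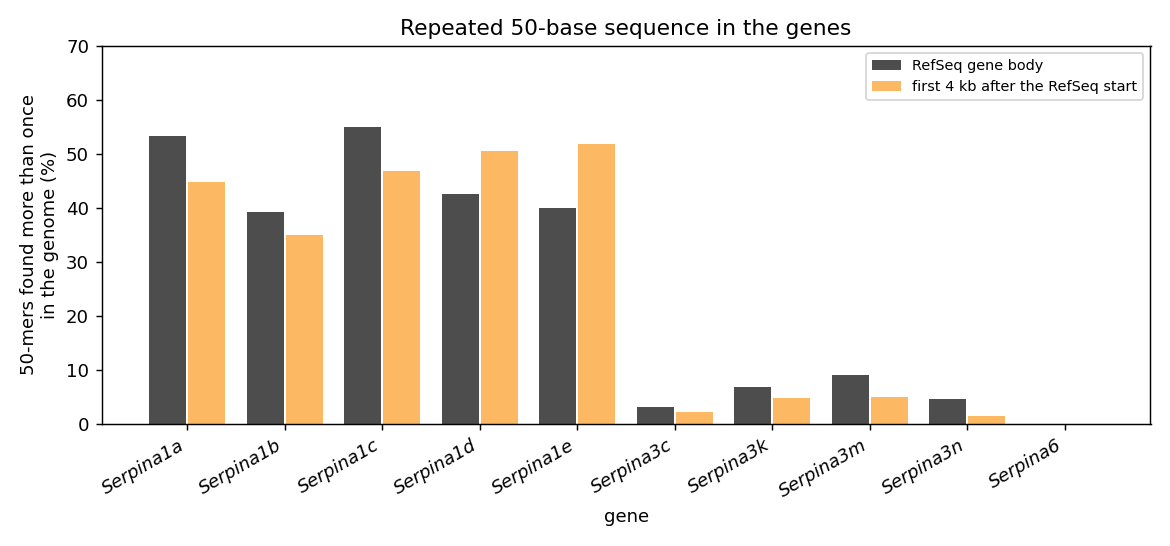
Percent of 50-mers found more than once in the mm10 chromosomes, for the RefSeq body (grey) and the first 4 kb after the RefSeq start (orange) of each gene. The 5 *Serpina1* copies lie between 34.9% and 55.0%, and the other 5 genes at or below 8.97%.

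Most other clade A serpin genes had no peak. Of 15 such genes, *Serpina10* and *Serpina12* had peaks in all 6 libraries and 11 had none in any, against 28.5% and 47.2% of all windows, among them *Serpina1f*, *Serpina3a*, *Serpina3b*, *Serpina3f*, *Serpina3g*, *Serpina3h*, *Serpina3i* and *Serpina3j*. *Serpina12*, which encodes vaspin, had 1121 and 442 bp of peaks in B6, 4084 and 3356 bp in MSM, 3136 bp in the BM hybrid and 1587 bp in the MB hybrid. Its MSM mice were above both B6 mice in length, as in 4.97% of the 11446 windows with a peak in a parental library. They were also above both B6 mice in fold, with 4.64 and 4.41 in B6 against 7.75 and 6.58 in MSM. *Serpina10*, an inhibitor of activated coagulation factor X, overlapped in length and had a fold of 9.910 and 5.78 in B6 and 9.913 and 13.6 in MSM, with MSM replicate 1 barely above B6 replicate 1. In fold, 2 of the 15 genes thus had both MSM mice above both B6 mice, and 11 of the 15 had no peak. Of the 11446 windows with a peak in a parental library, 8.57% had MSM above B6 in fold.

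Liver serpins of other clades had peaks in all 6 libraries at 5 of 5 genes, against 28.5% of all windows. *Serpinc1*, which encodes antithrombin, had 6998 and 4422 bp in B6 and 5634 and 5749 bp in MSM, more than any single *Serpina1* start. Of the 5, *Serpind1* was the only gene without overlap of the strains, with 2881 and 1955 bp in B6 and 1584 and 1753 bp in MSM. Of windows with a peak in a parental library, 11.6% had B6 above MSM in length.

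All 10 regulators examined, such as *Hnf4a*, *Cebpa* and *Stat3*, had peaks in all 6 libraries, against 28.5% of all windows. *Foxa1* and *Onecut1*, which encode liver-enriched transcription factors, were longer in both MSM mice, with 4939 and 5428 bp in MSM against 4533 and 1617 bp in B6 for *Foxa1*. These are 2 of the 10, against 4.97% of windows with a peak in a parental library. *Foxa3* was higher in B6 in fold, 1 of the 10, against 9.29% of windows with a peak in a parental library. Among 6 proteases that these inhibitors act on, *Klkb1*, the plasma kallikrein gene expressed by hepatocytes, had peaks in every library. *Klkb1* was higher in B6 by both measures (3658 and 1722 bp in B6, 1266 and 985 bp in MSM). Of windows with a peak in a parental library, 11.6% were higher in B6 in length and 9.29% in fold. The other 5, *Elane*, *Prtn3*, *Ctsg*, *Cma1* and *Klk1*, which are products of other cell types, had no peak, as 47.2% of all windows.

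Markers of sinusoidal endothelium were listed most in the 2 longest peak lists. Peaks at 5 markers of sinusoidal endothelium summed to 6571 and 0 bp in B6 and 956 and 3026 bp in MSM. They summed to 6428 bp in the BM hybrid and 1240 bp in the MB hybrid. *Pecam1*, *Stab2*, *Kdr* and *Clec4g* were listed in B6 replicate 1 and none of the 5 in B6 replicate 2. Of all windows, 50.8% had a peak in B6 replicate 1 and 33.3% in B6 replicate 2. Of 5 Kupffer cell markers, *Cd68* had a peak in all 6 libraries and 3 had none (28.5% and 47.2% of all windows). No peak was found at 4 of 5 stellate cell markers and at 3 of 4 bile duct markers, against 47.2% of all windows with none in any library. The part of cell composition in the *Serpina* values was not tested, and in bulk liver fewer hepatocytes and less acetylation per hepatocyte cannot be told apart.

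Genes with the most similar profile of fold over the 6 libraries, among 6246 genes with a peak in all 6, were *Hfe* (r = 0.976), *C9* (r = 0.976) and *Sec24a* (r = 0.967) for the mean of the *Serpina1* genes. For the mean of *Serpina3k*, *Serpina3m*, *Serpina3n* and *Serpina6* they were *Wbp1* and *Ino80b* (r = 0.987 each, with the same values in all 6 libraries) and *Qk* (r = 0.984). These Pearson coefficients describe 6 points that share the depth of their libraries, and they were the highest of many.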

How the data were processed

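Liver chromatin was precipitated with an anti-H3K9ac antibody and sequenced as 50-base read pairs. According to the methods of the study, reads were trimmed with Trim Galore and mapped to mm10 (GRCm38) with Bowtie 2. The submitters' processing notes list Trim Galore, HISAT2, SAMtools and MACS2 without a role. The peak threshold, the control and the treatment of reads with several placements were not given in the sources used here. The deposited files were narrowPeak lists, 1 for each library and not pooled. Their fold enrichment is a linear ratio over background that the authors' peak caller wrote. The −log10 p and −log10 q values were deposited as the authors' peak caller gave them, and the score was deposited as a multiple of the −log10 q and was not used.

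Peak length and the highest fold were computed for each gene window in Python 3.11.15 with numpy 2.4.6 and scipy 1.17.1, the overlaps were tested on simulated data, and figures were drawn with matplotlib 3.10.9. A fold was 0 where no peak overlapped. Strains were compared over the 4 parental libraries by exact permutation (two-sided), and F1 libraries without a test. Background shares came from the windows of 21911 protein-coding genes. Promoters from RefSeq (GRCm38.p6) were aligned with BLAST+ 2.17.0 and Biopython 1.88, and 50-mers were counted over the chromosomes with numba 0.67.0. Alternatives were the same number of peaks or the same covered length in every library, −log10 q of at least 5, at least 50% of the peak inside the window, other windows, leaving out each mouse, the replicate block and scaling. The windows at the RefSeq starts were added after seeing the data.

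The 10 genes were named, with other genes by fixed lists (other clade A serpins, liver serpins of other clades, regulators, proteases, cell type markers) and the 3 genes most like each profile. The genes and lists were chosen with earlier results of these data known. One listed regulator and its motifs are not reported here.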

Additional observations from a re-analysis of the deposited data

How the results depend on the processing

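Of the MSM minus B6 differences of single genes under the alternatives, 33 (24 of peak length, 9 of fold) changed direction, and the cause was not tested. Settings that keep the strongest peak, and the replicate block, leave the fold difference as it was, so its repeats there are no sign of stability. Leaving out a mouse in turn gave differences in peak length of -3920 to 8111 bp over all windows, -2709 to 6065 bp over *Serpina1* and -1211 to 2046 bp over *Serpina3* and *Serpina6*, each lowest without B6 replicate 2 and highest without B6 replicate 1. For single genes the ranges were -1153 to 901 bp (*Serpina1a*), -228 to 3674 bp (*Serpina1b*), -845 to 847 bp (*Serpina1c*), -608 to 451 bp (*Serpina1d*), -484 to 644 bp (*Serpina1e*), -334 to 1112 bp (*Serpina3k*), -480 to 1274 bp (*Serpina3m*), 132 to 841 bp (*Serpina3n*) and -862 to -69.0 bp (*Serpina6*). In fold they were 0.47 to 5.27 (*Serpina1b*), -0.49 to 3.41 (*Serpina1c*), 0.72 to 5.90 (*Serpina1d*), -0.36 to 1.98 (*Serpina1e*), -5.46 to -0.35 (*Serpina3k*), -4.25 to 0.87 (*Serpina3m*), -3.57 to 3.10 (*Serpina3n*) and -5.58 to 1.42 (*Serpina6*). The number of genes without overlap of the strains ranged from 1 to 8 in peak length and from 2 to 8 in fold. Of windows with a peak in the remaining libraries, 61.2% had MSM above B6 in length and 13.2% the opposite without B6 replicate 1. Without B6 replicate 2 these shares were 5.03% and 84.2%. In fold they were 60.2% and 11.1% without B6 replicate 1, and 9.15% and 69.8% without B6 replicate 2. Without an MSM mouse each share was 10.2% to 20.3%. At *Serpina1a* the fold differences were -4.79 to -2.30. Leaving out a mouse could not change their direction, since both B6 values exceeded both MSM values.

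At the same covered length in every library, the difference turned to -186 bp over *Serpina3* and *Serpina6*, 458 bp at *Serpina1a* and -201 bp at *Serpina1c*, with the same values within 5 kb of the RefSeq start, and 2 genes were without overlap in peak length, both higher in MSM as in 17.5% of windows (1 within 5 kb of the RefSeq start, 16.8%). At the same number of peaks it turned to 797 bp at *Serpina1a*, -518 bp at *Serpina1c* and 89.5 bp at *Serpina1d*, and 2 genes were without overlap (8.87% of windows). With −log10 q of at least 5 it turned to -454 bp over *Serpina3* and *Serpina6*, 364 bp at *Serpina1a*, 117 bp at *Serpina1d*, -371 bp at *Serpina3k* and -363 bp at *Serpina3m*. Within 1 kb of the start it turned to -201 bp over all windows, -356 bp over *Serpina1* and -147 bp at *Serpina1c*, with 1 gene without overlap (12.2% of windows). In this setting 7 genes had a peak, as the GENCODE starts of *Serpina1b* and *Serpina1e* had none, so these 2 genes gave no value. The gene body alone gave 466 bp at *Serpina1a* and 1 gene without overlap (6.12%). The 5 kb either side of the start alone gave -0.99 in fold at *Serpina1b* and 1 gene without overlap in length (4.4%). Dividing by the length under all peaks gave 10.5 bp per Mb at *Serpina1a* and 3 genes without overlap (2 higher in MSM as in 17.1% of windows, 1 in B6 as in 15.6%), and dividing by the median fold gave 2 genes higher in B6 (12.8%). At the RefSeq start, the fold difference at *Serpina3m* was 0.91, at all peaks and at the same covered length. At *Serpina1b* it was 0.75 in both settings, against 2.87 in the GENCODE window, which contains *Serpina1d*.

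The replicate numbers share only a number: the deviations of replicate 1 from the strain means correlated at -0.02 between the strains over 6706 windows. With the replicate block, the difference over all windows was 2096 bp (exact sign-flip p = 1, smallest possible 0.5). Both pairs differed in 1 direction at *Serpina3n* in peak length, 1 gene against 0 without the block (8.07% of windows), and at *Serpina1a* in fold (14.9%).

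The number of mice, 2 a strain and 1 a cross, limits every comparison, since the smallest exact permutation p is 0.333. The number of reads of each library, on which peak calls depend, was not used, and the peak lists covered 6.28 to 16.0 Mb.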
